A study of Mus musculus with 12 samples.

Results

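The 10 genes described here, *Pax1*, *Pax9*, *Meox1*, *Meox2*, *Tcf15*, *Tbx15*, *Tbx18*, *Uncx*, *Nr2f1* and *Nr2f2*, encode transcription factors of paraxial and trunk mesoderm. They were taken by name from the 54352 gene symbols of a count table, and all 10 have a row. The rule names them by function and sets no threshold on their values, but they were chosen with earlier results of these data known, so that counts of members set beside the share over all genes are descriptions. RNA-seq was performed on primary fibroblasts of the adventitia, which is the outermost connective tissue layer of a vessel, cultured from the ascending and the descending aorta of wild-type (WT) C57Bl/6 mice aged 14 weeks by the sample labels. The methods of the study give a younger age, and sources differ on how often the cells were passaged. Of 12 libraries, 3 were made in each of 4 groups, which are descending and ascending fibroblasts kept with the solute as control, and descending and ascending fibroblasts given mouse TGFβ at 10 ng/mL for 48 h. The labels put all libraries in 1 batch and do not say whether replicates came from separate animals or cultures, so that p-values here measure the spread between these libraries, which may be technical. The ascending tissue included the aortic root, and no cells were sorted, so that a group can hold other cells that grow from adventitia.

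Somites are segments of paraxial mesoderm beside the neural tube. Their sclerotome gives vertebrae and ribs, their dermomyotome gives muscle and dermis, and somite cells also contribute to the wall of the descending aorta, whereas the ascending aorta draws on neural crest and the secondary heart field. *Pax1* and *Pax9* are paired-box factors of the sclerotome, *Meox1* and *Meox2* are homeobox factors of early somites, and *Tcf15* is a basic helix-loop-helix factor needed for somites to become epithelial. *Uncx* marks the posterior and *Tbx18* the anterior part of each sclerotome, and *Tbx18* is also known from the epicardium and from mural cells. *Tbx15*, a close relative of *Tbx18*, acts in skeletal, skin and fat development. *Nr2f1* and *Nr2f2* encode the orphan nuclear receptors COUP-TFI and COUP-TFII, and *Nr2f2* is widely used in mesenchyme and known for venous identity.

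Library totals were 16250126 to 23892943 counts, and values are given as normalized CPM, which are counts scaled to the library total and by TMM. The floor of each library was set at 3 counts, equal to 0.117 to 0.207 normalized CPM, and covers counting error only. Descending control replicate 3 stood apart from the other 11 libraries. It had a count on 13031 genes against 19337 to 20931, and 11.02% of its counts were mitochondrial against 0.703 to 1.03%. The chi-square per degree of freedom between it and the other descending controls was 367 to 395, against 2.63 to 5.82 for other pairs within a group. The main edgeR comparisons of members that include this library are therefore given with and without it. All 8 fibroblast markers were above the floor in at least 1 library of every group, with summed levels of 12398 to 24842 normalized CPM, and the 4 skeletal muscle markers *Myod1*, *Myog*, *Ckm* and *Actn2* were at the floor in every group. The 6 macrophage markers summed to 53.0 to 343 normalized CPM in ascending controls and to 14.7 to 48.0 in the other groups.

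In GENCODE vM21 on GRCm38, 4 of the detected members overlap, in their exons, a counted gene on the other strand. *Nr2f2* (chr7:70351944-70366735, minus strand) overlaps the noncoding gene *B130024G19Rik*, and 7.35% of its 50-base exon sequences also occur in another gene. *Tbx18* (chr9:87702800-87731260, minus strand) overlaps *D030062O11Rik*, with a shared part of 18.3%. *Nr2f1* (chr13:78188973-78199757, minus strand) overlaps *A830082K12Rik*, with a shared part of 1.30%, and *Pax9* (chr12:56691767-56712822, plus strand) overlaps the 3′ part of *Slc25a21*, a mitochondrial carrier gene, with a shared part of 3.50%. The strand setting of the read counting is not given in the sources used here. Whether the counts separate reads of such a member from those of its partner where they overlap is therefore not known. *Pax1* (chr2:147361925-147393295, plus strand) shares 3.32% with *AI646519*, which had 0 counts in the 12 libraries. *Meox1* (chr11:101877510-101894374, minus strand), *Meox2* (chr12:37108540-37179534, plus strand), *Tbx15* (chr3:99240381-99354259, plus strand) and *Tcf15* (chr2:152143561-152149097, plus strand) share no such sequence, and *Uncx* (chr5:139543494-139548179, plus strand) shares 0.39%.

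The 250 bases before the RefSeq start are shown for 4 members whose counts differed by site or with TGFβ, from the RefSeq promoter table on GRCm38.p6, which matched 7 of the 10 members (not *Meox1*, *Tcf15* and *Tbx15*). This start can differ from that of the GENCODE gene, and the *Pax1* window lies inside the GENCODE span given above. Capitals mark CAGAC on either strand, the core of a SMAD box, the element to which the DNA-binding TGFβ mediators attach. The windows lie at chr2:147364744-147364993 (*Pax1*, plus), chr12:37108290-37108539 (*Meox2*, plus), chr9:87731261-87731510 (*Tbx18*, minus) and chr7:70366747-70366996 (*Nr2f2*, minus), and each is written 5′ to 3′ on the strand of its gene.
Pax1: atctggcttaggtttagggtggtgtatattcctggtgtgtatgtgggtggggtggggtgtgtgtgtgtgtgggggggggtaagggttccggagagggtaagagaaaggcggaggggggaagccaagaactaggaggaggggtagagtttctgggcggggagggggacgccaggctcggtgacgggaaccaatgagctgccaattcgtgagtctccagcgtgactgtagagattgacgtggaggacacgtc
Meox2: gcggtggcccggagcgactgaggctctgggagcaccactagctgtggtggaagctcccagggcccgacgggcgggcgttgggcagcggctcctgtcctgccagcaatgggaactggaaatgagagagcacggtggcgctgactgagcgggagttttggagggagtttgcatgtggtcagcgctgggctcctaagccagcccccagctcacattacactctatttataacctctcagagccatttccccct
Tbx18: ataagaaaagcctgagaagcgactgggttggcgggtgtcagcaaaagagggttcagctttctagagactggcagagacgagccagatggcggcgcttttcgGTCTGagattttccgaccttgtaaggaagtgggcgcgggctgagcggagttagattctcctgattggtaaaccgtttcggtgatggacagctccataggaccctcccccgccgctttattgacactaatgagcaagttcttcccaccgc
Nr2f2: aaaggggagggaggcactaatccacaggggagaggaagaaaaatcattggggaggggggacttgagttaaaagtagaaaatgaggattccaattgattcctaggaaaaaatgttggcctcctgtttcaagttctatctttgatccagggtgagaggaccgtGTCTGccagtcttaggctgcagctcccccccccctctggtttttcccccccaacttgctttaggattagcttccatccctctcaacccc
CAGAC occurred once in the *Tbx18* and once in the *Nr2f2* window, and not in the other 6 windows of members (*Nr2f1* has 2 windows). It occurred in 42.2% of all 32851 windows of this length, so that its presence is common. The other motifs searched on both strands were CANNTG (E-box, in 5 of 8 windows of members and 66.2% of all), TAATNA (homeobox core, in 3 of 8 and 24.3%) and TGANTCA (AP-1, in 0 of 8 and 6.75%). All 250 bases shown for *Tbx18* and for *Nr2f2* are annotated as exon of the opposite-strand partner named above, and those for *Pax1* and *Meox2* hold no annotated exon.

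Of the 10 members, 8 had at least 10 counts in 3 or more libraries. *Tcf15* had 0 counts in all 12 libraries, which allows up to 0.0121 normalized CPM over the libraries together. *Uncx* had 2 counts, both in ascending control replicate 3, which is under the floor. Both genes were thus not detectable at this depth, and neither passed the filter on low counts. Compared per kb of exon, the members ranked differently at each site. In the descending controls *Nr2f2* was at 13.5 ± 3.54 (SD, n = 3) normalized CPM per kb, followed by *Tbx15* at 7.04 ± 0.613, *Tbx18* at 6.49 ± 1.10 and *Nr2f1* at 2.59 ± 0.0693. With all 3 libraries *Tbx15* and *Tbx18* did not differ beyond their spread. Without descending control replicate 3 they were at 6.69 ± 0.0798 and 5.85 ± 0.0120 (SD, n = 2), farther apart than their spread. In the ascending controls *Tbx18* was at 9.52 ± 0.558 normalized CPM per kb, *Nr2f2* at 5.30 ± 0.515, *Nr2f1* at 2.71 ± 0.240 and *Tbx15* at 2.30 ± 0.180. *Pax1*, *Pax9*, *Meox1* and *Meox2* were the rarer members, with at most 1.74 normalized CPM per kb in every library except *Meox2* in descending control replicate 3, where it reached 3.18.

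**Figure D1:**
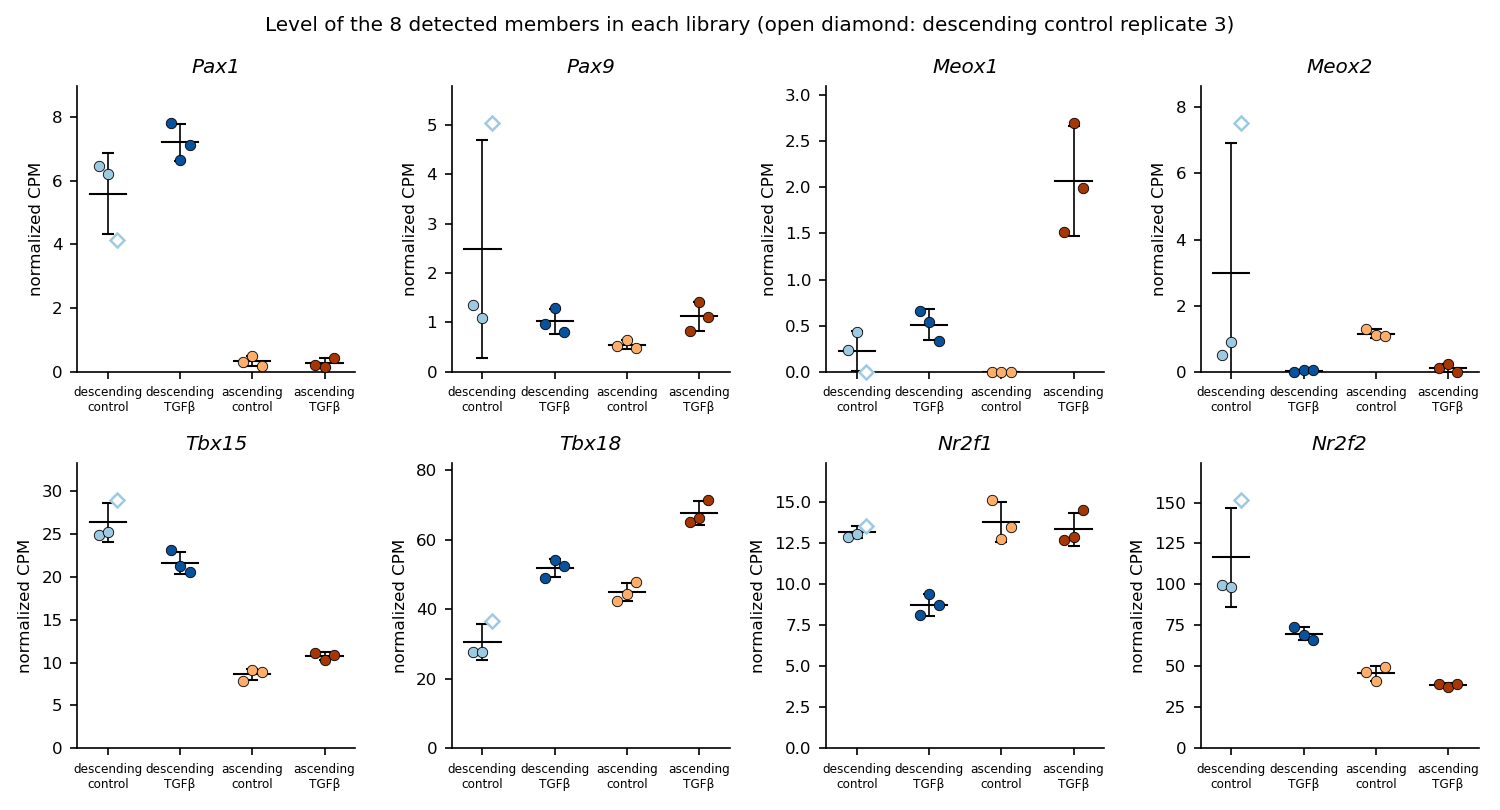
Normalized CPM of the 8 detected members (vertical axes, linear) in each library of the 4 groups, with the group mean as a bar and the SD as whiskers, cut at 0. The open diamond is descending control replicate 3, which is the highest descending control for *Pax9* (5.03) and *Meox2* (7.51) and the lowest for *Pax1* (4.14) and *Meox1* (0).

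The comparison of sites without TGFβ asked which members keep a site difference in culture. *Pax1*, *Tbx15* and *Nr2f2* were lower in ascending than in descending control fibroblasts, while *Nr2f1* had similar levels at both sites. With all 6 libraries, 3 of the 7 members tested passed, all lower in ascending fibroblasts, beside 2.65% of all 14090 genes tested. Without descending control replicate 3, 5 of 7 passed, 4 lower and 1 higher, beside 31.6% of 14644 genes. In bulk RNA, fewer cells of a type and less RNA per cell cannot be told apart.

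*Pax1*, the sclerotome factor, showed the widest site difference among the members that passed the filter on low counts. Its counts were 166, 143 and 60 in the descending controls and 7, 10 and 4 in the ascending controls, or 6.46, 6.20 and 4.14 against 0.304, 0.499 and 0.195 normalized CPM. The groups did not overlap, and the ascending libraries were just above the floor. The difference was -4.05 ± 0.48 on the log2 scale, or 16.5-fold (SE, edgeR adjusted p = 0.0146), and -4.22 ± 0.28 without descending control replicate 3. *Pax9*, its paralogue, was at 1.36, 1.08 and 5.03 normalized CPM in the descending and at 0.521, 0.649 and 0.487 in the ascending controls. All 3 descending controls were above the ascending ones, with descending control replicate 3 far above the others. The log2 difference of *Pax9* was -2.15 ± 0.74 (edgeR adjusted p = 0.285), and -1.13 ± 0.37 without that library, where it passed. *Slc25a21*, which overlaps *Pax9*, was at 1.80 ± 0.354 in descending and 0.431 ± 0.163 normalized CPM in ascending controls (SD, n = 3), with a log2 difference of -2.04 ± 0.53 (edgeR adjusted p = 0.150, and -1.91 ± 0.40 without that library), and its part in the *Pax9* counts was not tested. Under TGFβ *Slc25a21* was also lower in ascending fibroblasts (-1.41 ± 0.41, edgeR adjusted p = 0.00697), where the *Pax9* libraries overlapped between sites.

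*Tbx15* was at 24.9, 25.3 and 29.0 normalized CPM in the descending and at 7.86, 9.09 and 8.96 in the ascending controls. The groups were far apart, with a log2 difference of -1.61 ± 0.15, or 3.04-fold (edgeR adjusted p = 0.00784), and -1.53 ± 0.09 without descending control replicate 3. *Tbx18*, its relative, leaned the other way, at 27.7, 27.6 and 36.6 normalized CPM in the descending and 42.5, 44.5 and 47.7 in the ascending controls. The groups did not overlap, yet the spread among descending controls was wide, and the log2 difference was 0.56 ± 0.16 (edgeR adjusted p = 0.201). It was 0.71 ± 0.07 without descending control replicate 3, where it passed. The 5 epicardial and mesothelial markers summed to 84.6 to 99.7 normalized CPM in the ascending and 23.2 to 25.1 in the descending controls, with *Wt1* at the floor in all groups, and their part in the *Tbx18* level was not tested.

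*Nr2f2*, the most abundant member per kb in descending controls, was at 99.5, 98.2 and 151.7 normalized CPM in the descending and at 46.4, 40.9 and 49.8 in the ascending controls. The groups did not overlap, and the log2 difference was -1.35 ± 0.22, or 2.54-fold (edgeR adjusted p = 0.0371), and -1.10 ± 0.07 without descending control replicate 3. *Nr2f1* was at 12.9, 13.05 and 13.6 against 15.2, 12.8 and 13.5 normalized CPM, with overlapping groups and a log2 difference of 0.07 ± 0.15 (edgeR adjusted p = 0.822), and 0.10 ± 0.10 without descending control replicate 3. The homeobox pair was scarce. *Meox1* had 6, 10 and 0 counts in the descending and 0, 0 and 0 in the ascending controls, and was not tested. *Meox2* had 13, 21 and 109 counts in the descending and 30, 22 and 22 in the ascending controls, and its direction rested on 1 library. The log2 difference was -1.35 ± 1.05 (edgeR adjusted p = 0.583) with descending control replicate 3 and 0.73 ± 0.39 without it, and neither passed. The 4 adipocyte markers summed to 22.2 to 28.6 normalized CPM in descending and 0.912 to 4.94 in ascending controls, with *Ucp1* at the floor in all groups, and their part in the site differences was not tested.

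These 3 calls depended on the libraries used. Leaving out any other control library ended the calls of *Pax1* (edgeR adjusted p = 0.0708 to 0.139) and *Nr2f2* (0.0938 to 0.242). The *Tbx15* call ended without any of them except descending control replicate 1 (0.0541 to 0.0923). The log2 differences of these genes stayed negative in every alternative that tested them, from -4.44 to -3.78 for *Pax1*, -1.65 to -1.53 for *Tbx15* and -1.45 to -1.10 for *Nr2f2*.

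**Figure D2:**
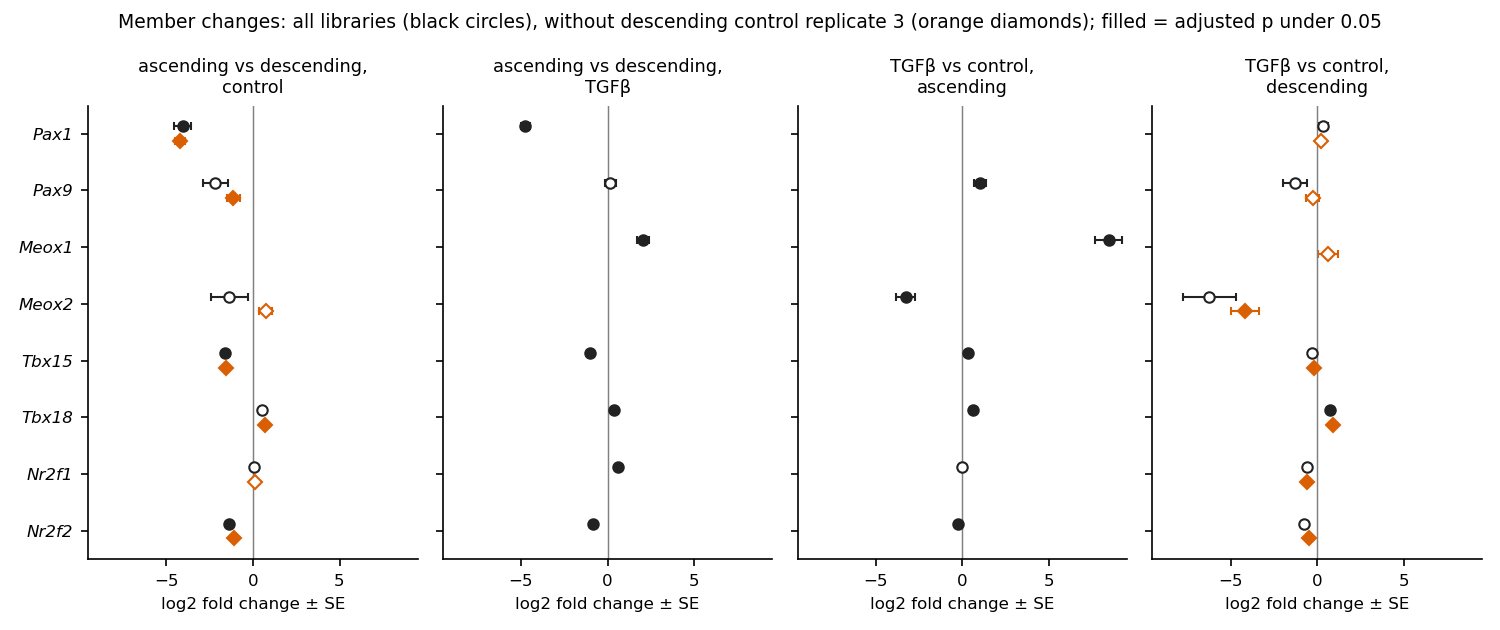
Log2 fold change ± SE (horizontal axes) of the detected members in 4 comparisons, with all libraries (black circles) and without descending control replicate 3 (orange diamonds, drawn where that library takes part). Filled symbols passed an adjusted p of 0.05. *Pax1*, *Tbx15* and *Nr2f2* sit left of 0 in both site comparisons, *Meox2* left of 0 in both TGFβ comparisons, and the position of *Meox1* in ascending fibroblasts depends on the prior count, since its ascending controls were all at 0.

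Under TGFβ, where no library stood apart, *Pax1*, *Tbx15* and *Nr2f2* were again lower in ascending fibroblasts, and *Meox1*, *Tbx18* and *Nr2f1* were higher. Thus 6 of 7 members tested passed, 3 in each direction, beside 36.3% of all 13678 genes tested. *Pax1* was at 7.80, 6.66 and 7.14 normalized CPM in descending and 0.209, 0.142 and 0.438 in ascending fibroblasts. The ascending libraries held 4, 3 and 9 counts, so that 1 of them was at the floor. The log2 difference was -4.74 ± 0.27, or 26.7-fold (edgeR adjusted p = 1.84e-14). *Tbx15* was at 23.1, 21.2 and 20.6 against 11.2, 10.3 and 10.9 normalized CPM, a log2 difference of -1.001 ± 0.090 (edgeR adjusted p = 2.46e-10). *Nr2f2* was at 74.2, 69.1 and 66.3 against 39.2, 37.5 and 39.4 normalized CPM, a log2 difference of -0.85 ± 0.05 (edgeR adjusted p = 1.82e-13). In each of these 3 genes the groups were separated by more than the spread within them. The adipocyte markers summed to 9.78 to 18.3 normalized CPM in descending and 0.0473 to 0.574 in ascending fibroblasts under TGFβ, with *Plin1*, *Cidec* and *Ucp1* at the floor in the ascending ones, and their part was not tested here either.

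Of the members that were higher in ascending fibroblasts under TGFβ, *Meox1* had 29, 57 and 41 counts against 13, 10 and 7 in descending fibroblasts. The ratio of the scaled counts was 4.12 (95% counting interval 2.75 to 6.36), and the fitted log2 difference was 2.02 ± 0.35 (edgeR adjusted p = 2.51e-05). *Tbx18* was at 65.1, 66.1 and 71.5 against 49.1, 54.2 and 52.3 normalized CPM, a log2 difference of 0.38 ± 0.05 (edgeR adjusted p = 7.75e-07). *Nr2f1* was at 12.7, 12.9 and 14.5 against 8.11, 9.43 and 8.74 normalized CPM, a log2 difference of 0.61 ± 0.11 (edgeR adjusted p = 3.02e-05). For all 3, each ascending library was above each descending one. With the 12 libraries in one fit, which thus includes descending control replicate 3, *Meox1* (edgeR adjusted p = 0.165, with 1.87e-08 to 0.165 over all alternatives) and *Tbx18* (0.0854, with 9.90e-11 to 0.0854) did not pass. The epicardial and mesothelial markers, set beside *Tbx18* above, summed to 48.5 to 57.9 in ascending and 26.4 to 28.9 normalized CPM in descending fibroblasts under TGFβ, with *Msln* also at the floor in the descending ones. *Pax9* overlapped between sites, at 0.835, 1.42 and 1.120 against 0.969, 1.30 and 0.803 normalized CPM (log2 difference 0.15 ± 0.33, edgeR adjusted p = 0.761). *Meox2* held 2, 5 and 0 against 0, 1 and 1 counts, too few for the test, with a ratio of 3.41 (95% counting interval 0.649 to 33.6).

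In ascending fibroblasts, *Meox1* rose and *Meox2* fell with TGFβ. *Meox1*, a somite homeobox gene also known from activated fibroblasts, had 0 counts in each control library and 29, 57 and 41 counts with TGFβ, or 1.51, 2.70 and 2.00 normalized CPM. Against the floor of each control library, it was at least 14.6-fold higher with TGFβ (edgeR adjusted p = 2.65e-07). *Meox2*, known to restrain growth of vascular smooth muscle cells, had 30, 22 and 22 counts in controls and 2, 5 and 0 with TGFβ. The ratio of control to TGFβ was 10.1 (95% counting interval 4.67 to 26.0), and the fitted log2 change was -3.28 ± 0.55 (edgeR adjusted p = 7.66e-05). It was -4.37 ± 0.71 without ascending TGFβ replicate 2 and -2.70 ± 0.51 without ascending TGFβ replicate 3, and it did not pass with the 12 libraries in one edgeR fit (adjusted p = 0.0873, with 1.87e-08 to 0.0873 over all alternatives). The libraries of the groups did not overlap for either gene. In all, 6 of 7 members tested passed in ascending fibroblasts, 4 higher and 2 lower, beside 55.8% of all 13917 genes tested.

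*Tbx18* rose with TGFβ in ascending fibroblasts from 42.5, 44.5 and 47.7 to 65.1, 66.1 and 71.5 normalized CPM, a log2 change of 0.59 ± 0.06 (edgeR adjusted p = 1.09e-07). *Tbx15* rose less, from 7.86, 9.09 and 8.96 to 11.2, 10.3 and 10.9 normalized CPM (log2 change 0.32 ± 0.11, edgeR adjusted p = 0.0202). *Pax9* rose from 0.521, 0.649 and 0.487 to 0.835, 1.42 and 1.120 normalized CPM (log2 change 1.02 ± 0.35, edgeR adjusted p = 0.0196). All treated libraries were above all controls for these 3 genes, yet the calls of *Tbx15* and *Pax9* were close to the threshold. *Pax9* did not pass with DESeq2 (adjusted p = 0.0573) or with the 12 libraries in one edgeR fit (0.313, with 0.00977 to 0.313 over all alternatives), nor without ascending control replicate 1 or 3 or ascending TGFβ replicate 2 (edgeR adjusted p = 0.0632, 0.0702 and 0.111), and *Tbx15* did not pass without ascending control replicate 1 or ascending TGFβ replicate 1 or 3 (0.0876, 0.0629 and 0.0560), nor in the one fit (0.0856, with 0.0174 to 0.0876 over all alternatives). *Nr2f2* fell from 46.4, 40.9 and 49.8 to 39.2, 37.5 and 39.4 normalized CPM, a small log2 change of -0.25 ± 0.06 (edgeR adjusted p = 0.00350) that did not pass in the one fit (0.404, with 6.85e-05 to 0.404 over all alternatives). *Nr2f1* overlapped between treatments (log2 change -0.05 ± 0.09, edgeR adjusted p = 0.652). *Pax1* had 7, 10 and 4 counts in controls and 4, 3 and 9 with TGFβ and was not tested, with a ratio of 0.796 (95% counting interval 0.388 to 1.60).

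In descending fibroblasts, *Tbx18* was again higher with TGFβ, and it was the only one of 7 members tested that passed in edgeR with all 6 libraries, beside 8.07% of all 13825 genes tested. DESeq2 called 4 on the same libraries, beside 2531 of the 13825 genes. These were *Tbx18* and, as lower, *Meox2* (adjusted p = 0.000745, with 6.57e-05 to 0.264 over all alternatives), *Nr2f1* (0.00562, with 0.000192 to 0.359) and *Nr2f2* (0.0206, with 1.95e-08 to 0.340). Without descending control replicate 3, 5 of 8 members tested passed in edgeR, *Tbx18* higher and *Meox2*, *Tbx15*, *Nr2f1* and *Nr2f2* lower, beside 52.9% of 14311 genes. *Tbx18* was at 27.7, 27.6 and 36.6 normalized CPM in controls and 49.1, 54.2 and 52.3 with TGFβ, without overlap. The log2 change was 0.75 ± 0.16, or 1.69-fold (edgeR adjusted p = 0.0443), and 0.91 ± 0.07 without descending control replicate 3. This call ended when any other descending library was left out (edgeR adjusted p = 0.128 to 0.208). *Meox2* held 13, 21 and 109 counts in controls and 0, 1 and 1 with TGFβ, each treated library being at the floor. The ratio of control to TGFβ was 66.9 (95% counting interval 18.2 to 558), and 20.6 (5.29 to 177) without descending control replicate 3. The fitted log2 change of *Meox2* was -6.22 ± 1.55 (edgeR adjusted p = 0.0678), and -4.16 ± 0.80 without that library.

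*Nr2f2* was at 99.5, 98.2 and 151.7 normalized CPM in descending controls and at 74.2, 69.1 and 66.3 with TGFβ. Every treated library was below every control, with a log2 change of -0.75 ± 0.21 (edgeR adjusted p = 0.0914), and -0.50 ± 0.06 without descending control replicate 3. *Nr2f1* was at 12.9, 13.05 and 13.6 against 8.11, 9.43 and 8.74 normalized CPM, likewise without overlap. Its log2 change was -0.60 ± 0.16 (edgeR adjusted p = 0.0774), and -0.57 ± 0.12 without that library. *Tbx15* was at 24.9, 25.3 and 29.0 against 23.1, 21.2 and 20.6 normalized CPM, a log2 change of -0.29 ± 0.14 (edgeR adjusted p = 0.270), and -0.21 ± 0.09 without it. *Meox1* was near the floor, with 6, 10 and 0 counts in controls and 13, 10 and 7 with TGFβ. Its ratio was 2.00 (95% counting interval 1.06 to 3.94), and 1.54 (0.815 to 3.03) without descending control replicate 3, where the fitted log2 change of 0.62 ± 0.55 did not pass. Over the alternatives that tested *Meox1*, this change was 0.62 to 1.94 and passed in none. *Pax1* was at 6.46, 6.20 and 4.14 normalized CPM in controls and 7.80, 6.66 and 7.14 with TGFβ (log2 change 0.35 ± 0.24, edgeR adjusted p = 0.437, and 0.19 ± 0.15 without that library). The log2 change of *Pax9* was -1.28 ± 0.71 (edgeR adjusted p = 0.340), and -0.27 ± 0.36 without that library.

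The 6 endothelial markers summed to 24.9 to 26.7 normalized CPM in descending and 24.98 to 27.8 in ascending controls. These sums overlapped between sites, whereas *Nr2f2* was 2.54-fold lower in ascending controls. With TGFβ the markers summed to 12.04 to 15.3 in descending and 8.56 to 10.6 in ascending fibroblasts. They were thus lower with treatment at both sites, as *Nr2f2* was, by 1.68-fold in descending and 1.19-fold in ascending fibroblasts for *Nr2f2*. Of the defining endothelial markers, *Cdh5* was at the floor in descending TGFβ and in both ascending groups, *Pecam1* in ascending TGFβ and *Erg* in descending controls. The part of endothelial cells in the *Nr2f2* counts was not tested. The 6 smooth muscle markers summed to between 2509 and 2554 normalized CPM in descending controls and between 7959 and 8380 with TGFβ, and to between 1579 and 1692 in ascending controls and between 5107 and 5193 with TGFβ. The 5 pericyte markers, set here because *Tbx18* is known from mural cells, summed to between 136 and 319 normalized CPM in descending controls and between 474 and 537 with TGFβ, and to between 189.7 and 212 in ascending controls and between 238 and 258 with TGFβ. Of these, *Kcnj8* was at the floor in all groups and *Abcc9* in both descending groups. The part of smooth muscle cells and pericytes in the changes with TGFβ was not tested either.

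Whether the TGFβ change itself differed between sites was tested as an interaction, where a positive value means a more positive change in ascending fibroblasts. With all 12 libraries, edgeR called 0 of the 8 members tested, beside 0.806% of all 14637 genes, although 5 members had an unadjusted p under 0.05. DESeq2 called 1 member, beside 494 of the 14637 genes. This was *Tbx15* (adjusted p = 0.0202, with 0.00456 to 0.559 over all alternatives). DESeq2 gave *Meox1* no adjusted p, beside an interaction of 6.78 ± 1.52 with an unadjusted Wald test p of 8.03e-06. The fitted interaction of *Meox1* was 7.33 ± 1.59 in edgeR with all libraries (adjusted p = 0.0978) and 7.84 ± 1.23 without descending control replicate 3, values that depend on the prior count. Without descending control replicate 3, edgeR called 4 members, *Meox1*, *Tbx15* and *Nr2f1* with positive and *Tbx18* with a negative interaction, beside 13.5% of 15013 genes. *Tbx15* rose with TGFβ in ascending fibroblasts while its treated descending libraries lay below their controls, and the interaction was 0.61 ± 0.16 with all libraries (edgeR adjusted p = 0.144) and 0.53 ± 0.13 without that library. *Nr2f1* lay below its controls in the treated descending libraries and overlapped between treatments in ascending ones (0.54 ± 0.17, edgeR adjusted p = 0.245, and 0.52 ± 0.14 without it). *Tbx18* rose at both sites, with an interaction of -0.17 ± 0.17 (edgeR adjusted p = 0.683), and -0.32 ± 0.09 without it. The interactions of *Pax9* (2.28 ± 0.80, edgeR adjusted p = 0.332, and 1.29 ± 0.51 without it), *Nr2f2* (0.50 ± 0.22, edgeR adjusted p = 0.496, and 0.26 ± 0.09) and *Pax1* (-0.69 ± 0.58, edgeR adjusted p = 0.646, and -0.51 ± 0.51) did not pass either way. *Meox2* had fewer counts in every treated library than in any control of its site. Its interaction of 2.93 ± 1.92 (edgeR adjusted p = 0.588) and 0.88 ± 1.14 without descending control replicate 3 did not pass. Over all alternatives it was 0.88 to 3.49, with 1.84 ± 2.39 without ascending TGFβ replicate 2.

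The members form 4 paralogue pairs, and the balance within each pair was computed per kb of exon in each library. *Nr2f1* made up 16.5% ± 2.91 (SD, n = 3) of *Nr2f1* plus *Nr2f2* in descending controls and 17.5% ± 1.69 with TGFβ, but 33.9% ± 2.18 and 36.9% ± 1.49 in ascending fibroblasts. This balance thus followed site, with no overlap between the 6 descending libraries (13.2 to 18.8%) and the 6 ascending libraries (31.5 to 38.4%). *Tbx15* made up 52.2% ± 1.96 of *Tbx15* plus *Tbx18* in descending controls and 34.4% ± 2.40 with TGFβ, and 19.5% ± 0.843 and 16.8% ± 0.876 in ascending fibroblasts. Its share was lower with TGFβ at each site, without overlap. It was also lower in every ascending library (16.1 to 20.5%) than in any descending one (33.0 to 53.6%). *Meox1* made up 22.1% ± 19.2 of *Meox1* plus *Meox2* in descending controls and 93.2% ± 6.14 with TGFβ, and 0% and 95.4% ± 4.05 in ascending fibroblasts. The *Meox1* share was higher with TGFβ in every library at both sites, on few counts (7 to 13 of *Meox1* per treated descending library). *Pax1* made up 72.9% ± 21.6 of *Pax1* plus *Pax9* in descending controls and 88.7% ± 3.07 with TGFβ, against 39.0% ± 7.70 and 20.9% ± 10.3 in ascending fibroblasts. The *Pax1* share did not overlap between sites either (48.1 to 90.9% in descending and 10.1 to 46.4% in ascending libraries), on few ascending counts. Descending control replicate 3 had the lowest share of its group in each pair, at 48.1% for *Pax1*, 0% for *Meox1*, 49.96% for *Tbx15* and 13.2% for *Nr2f1*. Descending control replicates 1 and 2 were at 84.2 and 86.6% for *Pax1* and at 32.8 and 33.5% for *Meox1*. They were at 53.1 and 53.6% for *Tbx15* and at 18.0 and 18.4% for *Nr2f1*. These shares describe the libraries and were not tested.

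**Figure D3:**
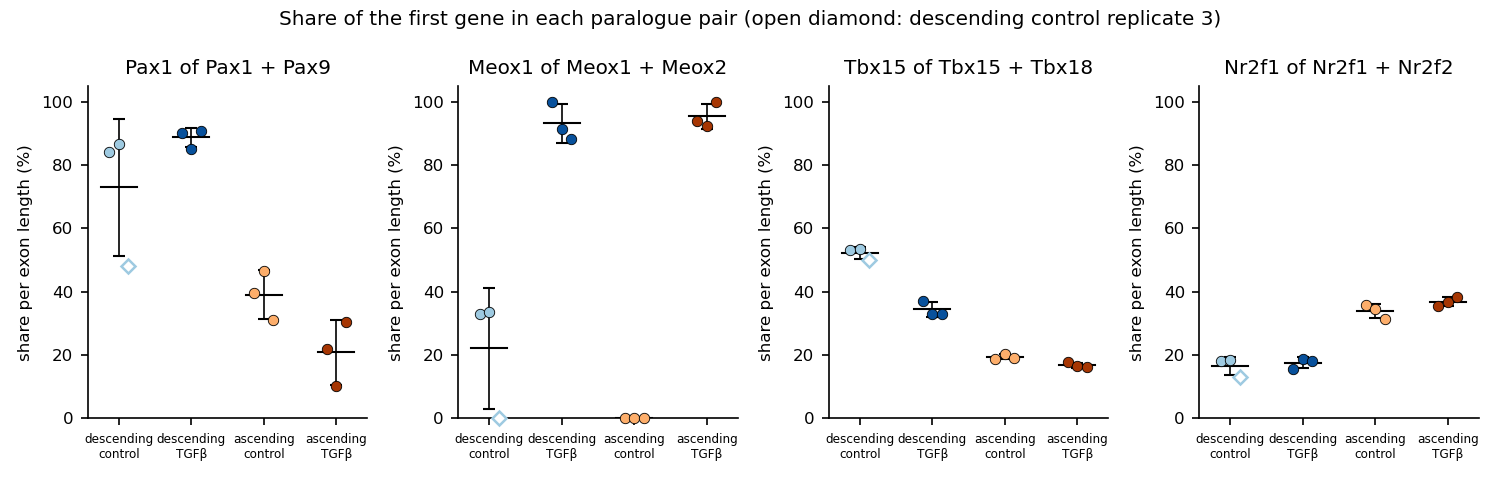
Share of the first gene in each paralogue pair (vertical axes, percent of the summed normalized CPM per kb) in each library, with group mean and SD. *Nr2f1* lies at 13.2 to 18.8% in the descending and at 31.5 to 38.4% in the ascending libraries, and *Meox1* at 88.1 to 100% with TGFβ and at 0 to 33.5% in the controls.

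*B130024G19Rik*, which overlaps the start of *Nr2f2* on the other strand, was also highest in descending controls and lowest in ascending TGFβ libraries. It was at 3.69, 3.90 and 10.1 normalized CPM in descending controls, 0.867, 0.975 and 0.992 in descending TGFβ, 1.13, 0.899 and 1.22 in ascending controls and 0.574, 0.378 and 0.341 in ascending TGFβ libraries. It fell with TGFβ in ascending (log2 change -1.33 ± 0.36, edgeR adjusted p = 0.00506) and in descending fibroblasts (-2.64 ± 0.51, edgeR adjusted p = 0.0330, and -1.996 ± 0.260 without descending control replicate 3). Under TGFβ it was lower in ascending fibroblasts (-1.13 ± 0.40, edgeR adjusted p = 0.0261), and in controls the difference was -2.44 ± 0.52 (edgeR adjusted p = 0.0858, and -1.79 ± 0.24 without that library). As the strand setting was not given, its counts and those of *Nr2f2* may not be independent where they overlap. *D030062O11Rik* at *Tbx18* and *A830082K12Rik* at *Nr2f1* passed in none of the 5 comparisons with all libraries, with edgeR adjusted p from 0.432 to 0.940 and from 0.190 to 0.651. Without descending control replicate 3, *A830082K12Rik* was higher in ascending controls, at 0.56 ± 0.19, against -0.75 ± 0.73 with that library.

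**Figure D4:**
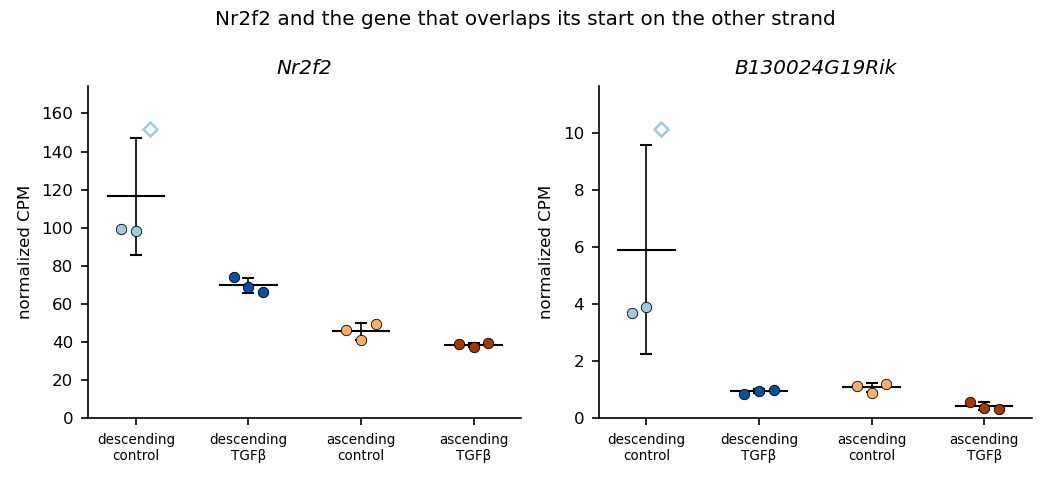
Normalized CPM (vertical axes, linear) of *Nr2f2* and of the opposite-strand gene *B130024G19Rik* in each library of the 4 groups, with mean and SD and descending control replicate 3 as an open diamond. Descending controls have the highest and ascending TGFβ libraries the lowest mean for both genes (116.5 and 38.7 for *Nr2f2*, 5.91 and 0.431 for *B130024G19Rik*).

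Other genes of the same tissues were followed in 5 lists, of which every symbol had a row, 1 of them by an older name, and calls are those of edgeR unless DESeq2 is named. Over all genes, as given above, 36.3% passed between sites under TGFβ and 55.8% with TGFβ in ascending fibroblasts. Of 14 presomitic and segmentation genes, 2 were tested, *Lfng*, a modifier of Notch, and the T-box gene *Tbx6*. In ascending fibroblasts *Lfng* rose with TGFβ (log2 change 0.34 ± 0.10) and *Tbx6* fell (-0.92 ± 0.37), of which DESeq2 called *Lfng* only. In controls and with TGFβ in descending fibroblasts edgeR called 0 of 2 (0 at an unadjusted p under 0.05, and 0 by DESeq2), beside 2.65% and 8.07% of all genes. Without descending control replicate 3 it called 1 and 0, beside 31.6% and 52.9%. Like *Tcf15* and *Uncx*, the rest of that list was below the filter. Of 16 dermomyotome and myotome genes, 5 were tested between sites under TGFβ, of which edgeR called 4 and DESeq2 3, without *Twist2*. The *Eya1* cofactor was higher in ascending fibroblasts (1.67 ± 0.46), and *Eya2* (-2.83 ± 0.53) and *Twist2* (-0.31 ± 0.11) were among those lower. Under TGFβ, *Eya1* in descending (0.153 to 0.433 normalized CPM) and *Eya2* in ascending fibroblasts (0.0522 to 0.236) were near the floor. With TGFβ in ascending fibroblasts, *Six4* rose (1.19 ± 0.17), and *Twist2* (-0.55 ± 0.11) and *Eya1* (-1.27 ± 0.28) fell, of 4 tested, as in DESeq2. With all libraries edgeR called 0 of 5 between sites in controls (3 at an unadjusted p under 0.05, and 1 by DESeq2) and 0 of 5 with TGFβ in descending fibroblasts (2, and 1 by DESeq2), beside 2.65% and 8.07% of all genes. Without descending control replicate 3 it called 5 of 5, 1 higher and 4 lower, and 3 of 5, 1 higher and 2 lower, beside 31.6% and 52.9% of all genes. The list medians were -0.31 under TGFβ and -0.26 in ascending fibroblasts, beside 0.0024 and -0.0044 over all genes tested.

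The sclerotome and tendon list, the tissue of *Pax1* and *Pax9*, was mostly detected, with 13 of 16 genes tested under TGFβ, of which 10 passed (9 in DESeq2) beside 36.3% of all genes. Between sites 6 were higher in ascending fibroblasts, among them the cartilage factors *Sox9* (log2 difference 0.51 ± 0.05) and *Sox6* (1.35 ± 0.18) and the tendon factor *Scx* (1.11 ± 0.15). The 4 that were lower included the limb and craniofacial mesenchyme gene *Prrx1* (-1.33 ± 0.04), the Hedgehog effector *Gli2* (-1.995 ± 0.246) and the bone factor *Runx2* (-0.31 ± 0.10). The list thus held genes on both sides, and its median was 0.17. With TGFβ in ascending fibroblasts, 9 of 13 passed (8 in DESeq2). Of these, 6 rose, among them *Foxc2* (1.38 ± 0.06), *Sox9* (0.41 ± 0.04) and *Scx* (1.71 ± 0.21), and 3 fell, *Prrx1* (-1.21 ± 0.04), *Sox5* (-1.58 ± 0.17) and *Twist1* (-0.32 ± 0.06), with a median of 0.18. In controls *Prrx1* was the only one of 14 to pass in edgeR, where DESeq2 called 5, and was lower in ascending fibroblasts (-1.99 ± 0.27, and -1.64 ± 0.04 without descending control replicate 3), against 9 of 14 without that library, beside 2.65% and 31.6% of all genes. With TGFβ in descending fibroblasts, *Foxc2* rose (1.03 ± 0.13, and 0.95 ± 0.06 without that library) and *Prrx1* fell (-1.88 ± 0.27, and -1.52 ± 0.05), 2 of 14 in edgeR (4 in DESeq2), against 10 of 14 without that library, beside 8.07% and 52.9% of all genes. The 4 cartilage markers summed to 123 to 161 normalized CPM in descending controls, 563 to 642 in descending TGFβ, 59.2 to 62.3 in ascending controls and 160.5 to 194 in ascending TGFβ libraries, with *Matn1* and *Col9a1* at the floor in all groups and *Acan* in both descending groups, and their part in the *Pax1* level was not tested.

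Of 15 intermediate and lateral mesoderm genes, 7 were tested and passed under TGFβ, in DESeq2 too, beside 36.3% of all genes. *Osr1* (log2 difference 0.77 ± 0.05), *Foxf1* (4.02 ± 0.35) and *Tbx2* (0.87 ± 0.20) were higher in ascending fibroblasts, and the 4 lower ones included *Prrx2* (-0.88 ± 0.06), *Tbx3* (-1.93 ± 0.16) and *Tbx1* (-2.27 ± 0.23). *Foxf1* was near the floor in descending TGFβ libraries, at 0.108 to 0.306 normalized CPM. Of the T-box genes named here for this comparison, *Tbx2* and *Tbx18* were higher and *Tbx1*, *Tbx3* and *Tbx15* lower in ascending fibroblasts. These genes come from the members and this list, and T-box genes were not tested as a family. In controls *Osr1* was higher (0.93 ± 0.13, and 0.85 ± 0.06 without descending control replicate 3) and *Tbx3* lower (-1.60 ± 0.24, and -1.49 ± 0.18), the 2 of 10 tested that passed in edgeR (5 in DESeq2), against 8 of 10 without that library, beside 2.65% and 31.6% of all genes. With TGFβ in ascending fibroblasts, *Foxf2* rose (0.98 ± 0.15), and *Prrx2* (-0.74 ± 0.06), *Osr2* (-1.66 ± 0.40) and *Foxf1* (-0.46 ± 0.18) fell, of 10 tested, and DESeq2 called 3, without *Foxf1*. With TGFβ in descending fibroblasts edgeR called 0 of 7 (1 at an unadjusted p under 0.05, and 1 by DESeq2), beside 8.07% of all genes. Without descending control replicate 3 it called 4 of 7, 2 in each direction, beside 52.9% of all genes. The list medians were -0.53 between sites under TGFβ and -0.11 for TGFβ in ascending fibroblasts.

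Among 11 relatives and partners of the COUP-TFs, 8 were tested under TGFβ, of which 6 passed (6 in DESeq2) beside 36.3% of all genes. The COUP-TF cofactor *Zfpm2* (0.62 ± 0.05) and the retinoic acid receptor *Rarb* (1.71 ± 0.17) were higher in ascending fibroblasts, as *Nr2f1* was in this comparison. The 4 lower ones, as *Nr2f2* was, included *Rara* (-0.55 ± 0.06), *Rarg* (-0.24 ± 0.05) and *Rxra* (-0.19 ± 0.05). In controls without descending control replicate 3, *Rarg* was instead higher in ascending fibroblasts (0.30 ± 0.06), and its interaction without that library was -0.54 ± 0.08. With TGFβ in ascending fibroblasts, *Rarb* rose by 2.94 ± 0.20 on the log2 scale, *Nr2f6*, a relative of *Nr2f2*, by 0.26 ± 0.07 and *Rara* by 0.13 ± 0.05, while *Rarg* fell (-0.38 ± 0.04), and DESeq2 called 3 of these 4, without *Rara*. The list medians were -0.12 between sites under TGFβ and 0.03 for TGFβ in ascending fibroblasts. With all libraries, edgeR called 0 of 8 between sites in controls (0 at an unadjusted p under 0.05, and 0 by DESeq2) and 0 of 8 with TGFβ in descending fibroblasts (3 at an unadjusted p under 0.05, and 2 by DESeq2), beside 2.65% and 8.07% of all genes. Without descending control replicate 3, it called 5 and 6 of 8, beside 31.6% and 52.9% of all genes.

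For each detected member, up to 3 genes of 12706 with the most similar log2 CPM over the 12 libraries are given, as a description, since the points share libraries and only 4 groups. *Pax1* was nearest to *Hoxb5os* (Pearson's r = 0.99), *Ptms* (0.98) and *Hoxc4* (0.98), and *Tbx15* to *Hoxb6* (0.98), *Fst* (0.98) and *Hoxb5* (0.98). Transcripts of HOX clusters, which mark position along the body axis, were thus among the nearest genes of *Pax1* and *Tbx15*. *Tbx18* was nearest to *Itga4* (0.99) and *Bdnf* (0.98), *Nr2f1* to *Ncapg2* (0.98), *Dnmt1* (0.97) and *Olfml2a* (0.96), and *Nr2f2* to *Gpx3* (0.98), *Tspan18* (0.98) and *Impact* (0.98). *Meox1* was nearest to *Lamb1* (0.94), *Edem1* (0.93) and *Nup93* (0.93), and *Meox2* to *Cap2* (0.97), *Smarca2* (0.97) and *Fads2* (0.97). *Pax9* was nearest to *Tcof1* (0.98), *Lrp6* (0.95) and *Fgd6* (0.95). Over the 11 libraries without descending control replicate 3, these values were 0.94, 0.85 and 0.87 for *Pax9* and moved less for the other members.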

How the data were processed

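The authors aligned paired-end RNA-seq reads to mm10 and deposited raw counts per gene symbol. STAR, featureCounts, FastQC and DESeq2 are named in the submitters' processing notes without versions. Multimapper handling and strand setting are not given in the sources used here. Libraries were grouped by site and treatment from the sample labels. Counts were tested with edgeR 4.0.16 in R 4.3.3 (quasi-likelihood F-test, two-sided, TMM, filterByExpr with a minimum count of 10 and total of 15) on the groups compared, or on 12 libraries for the interaction, with Benjamini-Hochberg adjustment over all genes tested and a threshold of 0.05. SE was the log2 fold change divided by the square root of F. Counting intervals were exact conditional binomial (95%). Alternatives were DESeq2 1.42.0, its size factors, other filters, a fold threshold, one fit, thinning, a replicate block and each library left out. Fits were tested on simulated data in which no library stood apart and only well-counted genes were changed. That test does not cover descending control replicate 3 or the rarer members. Members and gene lists were chosen with earlier results of these data known. Named genes were the members, up to 3 per list, direction and comparison by adjusted p, overlapping genes with at least 10 counts, and the 3 nearest in log2 CPM (prior count 2, mean of at least 1 CPM). Some genes that this rule names are not reported here. No protein sequences were used here.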

Additional observations from a re-analysis of the deposited data

Results flagged for a closer look

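Of the members, 4 changed differently with TGFβ at each site, by edgeR's interaction test without descending control replicate 3, beside 13.5% of 15013 genes. With all 12 libraries, edgeR called 0 of the 8 members tested, although 5 had an unadjusted p under 0.05, and DESeq2 called 1, *Tbx15* (adjusted p = 0.0202). DESeq2 gave *Meox1* no adjusted p, beside an unadjusted Wald test p of 8.03e-06. *Meox1* had an interaction of 7.84 ± 1.23 on the log2 scale (edgeR adjusted p = 7.93e-05, range over the alternatives 7.93e-05 to 0.257), a value that depends on the prior count because its ascending controls were at 0. *Tbx15* had 0.53 ± 0.13 (edgeR adjusted p = 0.00456, range 0.00456 to 0.559), *Tbx18* had -0.32 ± 0.09 (0.0164, range 0.0164 to 0.923) and *Nr2f1* had 0.52 ± 0.14 (0.0174, range 0.0174 to 0.803).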

How the results depend on the processing

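Of the 497 values of single members under an alternative, 435 kept their direction and their side of the threshold, 39 no longer passed, 19 newly passed and 4 changed sign. Calls between sites in controls numbered 3, against 5 with the 12 libraries in one fit and 0 to 5 with a library left out. Under TGFβ they numbered 6, against 3 with an absolute log2 fold change above 1 and 4 in one fit. In ascending fibroblasts they numbered 6, against 3 with that threshold, 5 with DESeq2 and 2 in one fit. There they were 2 higher and 2 lower without ascending control replicate 1, and 3 higher and 1 lower with at least 10 counts in every library. In descending fibroblasts they numbered 1, against 4 with DESeq2 and in one fit, 0 with the fold threshold, with DESeq2's size factors, with no filter and with thinned counts, and 0 to 5 with a library left out. For the interaction they numbered 0, against 1 with DESeq2 and 0 to 4 with a library left out. Changes of sign, none in a called value, were seen with a library left out, with log2 values of -1.85 to 0.73 for *Meox2* between sites in controls, -0.0504 to 0.352 for *Pax9* between sites under TGFβ and -0.113 to 0.0192 for *Nr2f1* in ascending fibroblasts. Without descending TGFβ replicate 3, *Pax9* was at -0.0021. The causes were not tested.

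Over all genes, calls between sites in controls numbered 374, against 1151 with DESeq2, 1545 in one fit and 33 to 4631 with a library left out. Under TGFβ they numbered 4963, against 1051 with the fold threshold and 1106 in one fit, and in ascending fibroblasts 7764, against 1598 and 2338. In descending fibroblasts they numbered 1115, against 2531 with DESeq2, 3570 in one fit and 213 to 7576 with a library left out, and for the interaction 118, against 494 with DESeq2, 67 with the fold threshold, 56 with no filter and 25 to 2022.

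Same-numbered libraries of compared groups had correlations of -0.026 to 0.065 in their deviations from the group means, and other-numbered ones -0.072 to 0.037. Between sites in controls, the same-numbered ones were at 0.061, 0.031 and 0.065. Values this small cannot decide whether same-numbered libraries share animals or cultures. With the replicate number as a block, 0 members passed between sites in controls and 0 in descending fibroblasts, and the numbers over all genes were 0 and 95, with 50 for the interaction, while 6 members still passed under TGFβ and 6 in ascending fibroblasts. Depth limits *Meox1*, *Meox2*, *Pax9* and ascending *Pax1*, which had at most 109 counts in a library.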
